A study of Mus musculus with 12 samples.

Results

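The comparison described here sets irradiated skin of mice with an altered Foxp3 gene against untreated skin of mice with wild-type Foxp3. Of the 12 mouse skin libraries in the series, 6 enter it and were chosen by their labels alone. The 3 irradiated E2 libraries carry the genotype written Foxp3-E2 on the sample labels, Foxp3-DE2 in the protocol and Foxp3dExon2 in the series title, which were taken as 1 genotype, and come from a skin site given 6 doses of ultraviolet B light (UVB). The dose is 200 mJ/cm2 on the sample labels and 100 mJ/cm2 in the protocol. The 3 untreated WT libraries carry the genotype Foxp3-WT and come from a site with no UVB. The irradiated site was a shaved patch of 3 by 2 cm on the back flank, and no shaving is mentioned for the untreated site. Age, sex, strain background and the number of animals are not stated either. Both genotype and UVB differ between these groups, so their parts in a difference cannot be told apart from these 6 libraries. The 3 irradiated WT libraries (Foxp3-WT, the same UVB) split the comparison into 2 steps, UVB in WT skin and then genotype within irradiated skin. The 3 untreated E2 libraries complete the series and stay outside the comparison.

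Regulatory T cells, which restrain inflammation in skin and elsewhere, depend on the transcription factor Foxp3. UVB damages DNA in keratinocytes, the cells of the epidermis, and these cells then release cytokines and chemokines that call neutrophils and monocytes into the skin. Wounded or inflamed epidermis switches on a set of stress keratins, small proline-rich proteins and antimicrobial proteins that are scarce in resting skin between hair follicles.

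Expression was measured as read counts per gene and is given below as CPM, counts normalised to library size and scaled for library composition by TMM, always in the order of replicates 1, 2 and 3. No label ties a replicate number to an animal, a day or a batch, so each p-value reflects variation among libraries, which need not all come from different animals. The untreated WT libraries held 3852586 to 4392982 counts and the irradiated E2 libraries 2809142 to 4062053, with replicate 3 the shallowest of the 12. Foxp3 itself had 1, 7 and 0 counts in the irradiated E2 libraries and 0 in each of the other 9, too few to test, and counts per gene do not show which exons were present. A group total of 0 allows up to 0.219 CPM in untreated WT. In a principal component analysis, component 1 (39.7% of the variance) set the untreated E2 libraries against the remaining 9, and component 2 (15.9%) ran from untreated WT at -53 to -42.1 to irradiated E2 at 69.7 to 74.3.

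The markers of other tissues in the skin samples were compared first. Skeletal muscle genes made up 4.24% to 5.27% of counts in untreated WT and 3.47% to 4.26% in irradiated E2 libraries. Hair shaft and sheath genes made up 2.24% to 4% and 1.39% to 2.50%. Adipocyte genes made up 0.583% to 0.95% and 0.433% to 0.507%. Basal and suprabasal epidermal genes went the other way, at 1.05% to 1.42% in the untreated WT libraries and 2.53% to 3.18% in the irradiated E2 libraries. These shares overlapped between the groups for muscle and hair genes and did not overlap for adipocyte and epidermal genes. Much of the rise of the epidermal share lay in Krt14, and the median log2 fold change of that list was 0.37. The part of the tissue mix in the results below was not tested. In bulk skin, a change in the number of cells of a type and a change in RNA per cell cannot be told apart.

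Irradiated E2 skin held far more RNA of inflammatory cytokines, neutrophil and monocyte genes, stress keratins and interferon-induced genes than untreated WT skin. It held less of some hair matrix and follicle stem cell genes, some Skint genes and several late cornified envelope genes. With edgeR's quasi-likelihood test and a Benjamini-Hochberg adjusted p under 0.05, 688 of 15126 genes differed (4.55%), of which 562 were higher in irradiated E2 (3.72%) and 126 lower (0.833%). All 3 libraries of one group lay beyond all 3 of the other in 26.3% of the tested genes, and in each of the 688. Irradiated E2 lay above untreated WT in all libraries for 14.1% and below for 12.2%. These shares, with 3.72% called higher and 0.833% called lower, are the background for every list count below. A single call in a list describes that gene and not the list. The median log2 fold change over all tested genes was -0.04. Scaling by total counts alone, which moved that median to -0.20, gave 369 higher and 168 lower genes. Leave-one-out counts, given from here on in the order of irradiated E2 replicates 1, 2 and 3 and then untreated WT replicates 1, 2 and 3 left out, were 441, 381, 474, 341, 423 and 388 genes, and no gene of the 688 changed sign in any of these fits.

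**Figure D1:**
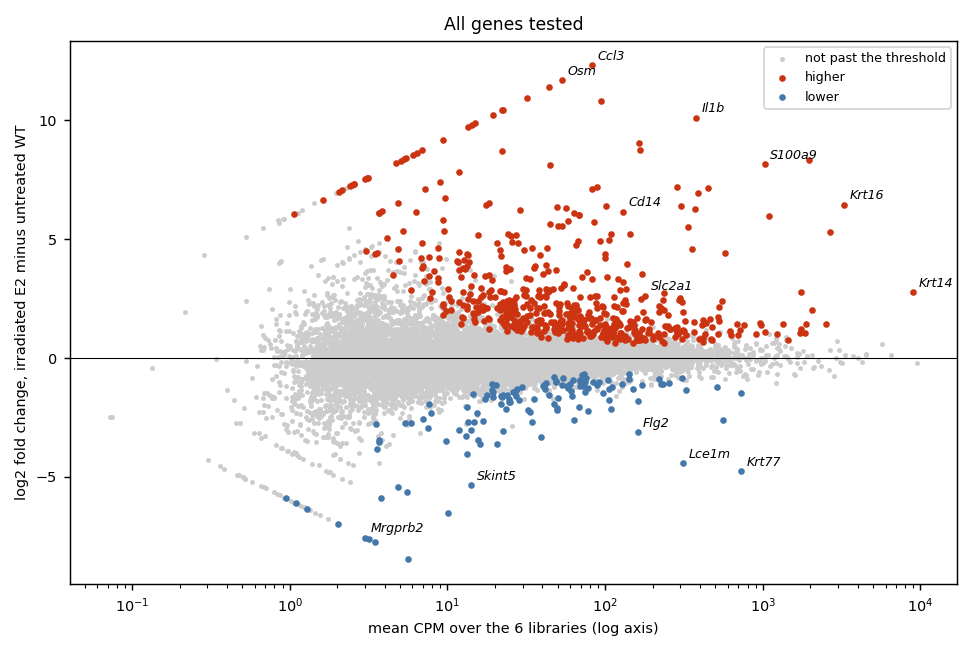
Log2 fold change (vertical axis) against mean CPM over the 6 libraries (horizontal log axis) for each tested gene, irradiated E2 minus untreated WT. The 562 higher genes in red include the keratins Krt14 and Krt16 and the cytokines Il1b and Osm, and the 126 lower genes in blue include Krt77, Lce1m and Skint5. The straight diagonal edges are genes with 0 counts in one group, whose plotted value depends on the prior count.

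The irradiated WT libraries show where along the way from untreated WT to irradiated E2 these differences lay. Between untreated and irradiated WT skin, 3 genes passed the test (0.0198%), Flg, Klk6 and Rbp2, and between irradiated WT and irradiated E2 skin, 448 passed (2.96%), of which 356 were higher in irradiated E2 (2.35%) and 92 lower (0.608%). Over the 562 higher genes the median log2 difference was 1.96, made up of steps with medians of 0.47 and 1.48. Over the 126 lower genes it was -1.67, with step medians of -0.35 and -1.37. The steps share libraries with the whole comparison and are given beside it as values. The count of 3 for UVB in WT skin was sensitive to the fit, at 22 genes with DESeq2 and 141 with no filter on low counts, and 0 when any 1 irradiated E2 library, untreated WT replicate 1 or 2, or irradiated WT replicate 1 was left out. The 448 genes between the irradiated groups became 212, 130 and 267 without irradiated E2 replicate 1, 2 or 3, and 213 and 171 without irradiated WT replicate 1 or 3. Hair shaft and sheath genes made up 3.66% to 5.25% of counts in irradiated WT, above the 1.39% to 2.5% of irradiated E2 with no overlap. With their sum as a covariate 213 genes passed between the irradiated groups, and 0 between the WT groups.

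The cytokines of the IL-1 and IL-36 family, which start inflammation in epidermis, rose. Of 13 tested members 7 were higher (leave-one-out counts 4, 3, 6, 3, 3 and 5), and the median log2 fold change was 2.13. Il1b, the main inflammatory IL-1 cytokine of myeloid cells, was at 0.218, 0 and 1.67 CPM in untreated WT, 11.5, 11.3 and 9.43 in irradiated WT and 1159, 817 and 291 in irradiated E2. Replicate 3 of irradiated E2 was the lowest of its group and still far above every WT library. The log2 fold change of Il1b was 10.11 ± 0.97 (adjusted p = 6.73e-05). The IL-36 genes Il1f6 and Il1f9, which encode IL-36 alpha and IL-36 gamma of keratinocytes, gave 3.72 ± 0.57 (adjusted p = 0.00122) and 2.63 ± 0.56 (adjusted p = 0.015). Il1f6 stood at 6.75, 1.17 and 12.5 CPM in untreated WT, 28.2, 30.2 and 10 in irradiated WT and 112, 87.8 and 72.2 in irradiated E2, a stepwise order of group means, and the WT groups overlapped. Il1rn, the antagonist of the IL-1 receptor, rose as well, from 96.2, 71.5 and 85.9 to 502, 329.9 and 277 CPM with irradiated WT at 91.8, 109 and 78.8, so that both WT groups lay together and irradiated E2 above them. Of the 6 leave-one-out fits, the call was lost by Il1f9 in 3 (edgeR adjusted p up to 0.0883).

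Oncostatin M, a myeloid cytokine of the IL-6 family that acts on keratinocytes and fibroblasts, gave one of the widest contrasts. Osm had 0 counts in untreated WT and 1201 in irradiated E2, at 135, 144 and 39.4 CPM, which is at least 519-fold higher against a floor of 3 counts over the group. Irradiated WT libraries were at 0, 0 and 0.304 CPM. Stat3, the transcription factor downstream of this family, was at 106, 79.9 and 122 CPM in untreated WT, 99.7, 97.7 and 101 in irradiated WT and 235, 259.9 and 223 in irradiated E2, a log2 fold change of 1.22 ± 0.18 (adjusted p = 0.000752). Socs3, the feedback inhibitor of the pathway, gave 2.13 ± 0.39 (adjusted p = 0.00447). In the IL-17, IL-22 and IL-20 list 13 of 21 members could be tested and 1 passed (leave-one-out counts 1, 0, 1, 0, 0 and 1), the receptor gene Il17rc (1.26 ± 0.26, adjusted p = 0.0109). Il17a and Il17f had 0 counts in both groups, and Il22 had 6 counts in irradiated E2 against 0. Il23a, the subunit gene of the cytokine IL-23, which sustains IL-17 producing T cells, had 16, 7 and 7 counts in irradiated E2 and 0 in every WT library, too few to test. Calls were lost by Il17rc in 3 of the 6 leave-one-out fits, with edgeR adjusted p up to 0.0888.

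Chemokine ligands for neutrophils and monocytes rose with them. Among CXC chemokines and receptors 4 of 13 tested members were higher, and among CC members 5 of 18 were higher and 1 lower, with medians of 2.38 and 1.37. Cxcl2, a neutrophil attractant, stood at 2.18, 0 and 0 CPM in untreated WT, 0, 5.66 and 2.13 in irradiated WT and 519, 316 and 163 in irradiated E2 (log2 fold change 8.77 ± 1.24, adjusted p = 0.000893). Ccl3, which attracts monocytes and neutrophils, had 0 counts in untreated WT and 273, 151 and 68.2 CPM in irradiated E2, at least 785-fold higher, with irradiated WT at 4.93, 0.738 and 2.74. In Cxcl2, Cxcl3, Ccl3 and Ccl4 irradiated E2 replicate 1 was the highest and replicate 3 the lowest, and every WT library lay below all 3. Cxcl9 (4.05 ± 0.76, adjusted p = 0.00548) and Cxcl10 (3.27 ± 0.82, adjusted p = 0.0337), ligands that attract T cells, rose less. Ccl8, a monocyte chemokine, was already at 67.7, 149 and 50 CPM in untreated WT and reached 421, 463 and 635 in irradiated E2. The receptor gene Ccr1 gave 3.35 ± 0.70 (adjusted p = 0.0119), while the neutrophil receptor gene Cxcr2 was at 0.218, 0.699 and 2.08 CPM in untreated WT and 31.8, 22.5 and 1.82 in irradiated E2, with overlapping groups (adjusted p = 0.0701). Ccl27a, a keratinocyte chemokine for skin-homing T cells, went the other way, from 114, 117 and 96.3 CPM through 27.4, 91.3 and 46.5 in irradiated WT to 12.2, 14.5 and 27.7 in irradiated E2 (log2 fold change -2.60 ± 0.43, adjusted p = 0.00263). Leaving out 1 library at a time ended the call of Cxcl10 in 5, Ccr1 in 3 of 6 fits (edgeR adjusted p up to 0.154 for Cxcl10).

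The upstream sequences of Cxcl2 and Cxcl3 are shown because both genes rose from almost no counts and hold the same run of an NF-kB type motif. The motif, GGG, any 2 bases and TTTCC, was searched on both strands in the 250 bases before each start in the RefSeq promoter table for GRCm38.p6, and matches are in capitals. The stretches run 30 bases to either side of the matches, 5′ to 3′ on the gene's strand.
Cxcl2 (chr5:90903772-90903860, plus strand): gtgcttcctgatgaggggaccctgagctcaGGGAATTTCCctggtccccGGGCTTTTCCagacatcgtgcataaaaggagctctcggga
Cxcl3 (chr5:90785998-90786067, plus strand): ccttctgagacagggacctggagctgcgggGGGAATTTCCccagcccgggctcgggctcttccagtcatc
The motif was found before 1.65% of the 27025 genes in the table. Counting only tested genes that the table holds, it was before 2 of 4 higher CXC genes and 0 of 8 others. For CC genes, counted the same way, the order was the opposite, with 0 of 4 higher genes and 2 of 7 others (Ccl20 and Ccl9). In the IL-1 and IL-36 list it was before 1 of 6 higher genes (Il1rn) and 0 of 6 others. These are matches of letters, and binding was not measured.

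Neutrophil genes and the stefin genes described next had the highest medians of the gene lists. Of 26 listed, 16 could be tested, 11 were higher and 1 lower, and the median log2 fold change was 6.54, or 5.91 with members at 0 counts set at their floor. Their share of all counts was 0.0244% to 0.033% in the untreated WT libraries and 0.475% to 0.541% in the irradiated E2 libraries. S100a8 and S100a9 encode calprotectin, a metal-binding antimicrobial protein of neutrophils that inflamed keratinocytes also make. S100a8 was at 21.1, 45.7 and 36.7 CPM in untreated WT, 230.1, 166 and 122 in irradiated WT and 1916, 2176 and 2366 in irradiated E2 (log2 fold change 5.96 ± 0.99, adjusted p = 0.00307). The 3 groups of S100a8 did not overlap. S100a9, to which DESeq2 gave no adjusted p, was at 2.61, 3.03 and 15.4 CPM in untreated WT and 2010, 2135 and 1996 in irradiated E2 (8.17 ± 1.02, adjusted p = 0.000372). Genes more restricted to myeloid cells moved with them, among them Acod1, the enzyme that makes itaconate, with 1 count in untreated WT and 2101 in irradiated E2, a ratio of 2720 after scaling (exact 95% interval 488 to 108000, counting error only). The receptor genes Trem1 and Clec4d, which amplify myeloid activation, had 0 counts in untreated WT, and were at least 190-fold and 209-fold higher. Retnlg, a resistin-like gene of neutrophils, had 0 counts in untreated WT and 56.9, 24.9 and 4.01 CPM in irradiated E2, at least 140-fold higher (adjusted p = 0.00259). Mcemp1, a membrane protein gene of mast cells and neutrophils, had 134 counts in irradiated E2 and 0 in untreated WT (adjusted p = 0.00889 with edgeR and 0.298 with DESeq2). Members with too few counts to test were mostly from irradiated E2 replicates 1 and 2. Mmp8, the neutrophil collagenase gene, had 88 counts in irradiated E2 and 1 in untreated WT, and Fpr1, a formyl peptide receptor gene, had 68 and 1, with 0 of either in replicate 3. The granulocyte marker genes Ly6g and Cd177 had 18 and 21 counts in irradiated E2 and 0 in untreated WT, and the granule genes Mpo and Elane had 0 and 2 against 0 and 5. Wfdc21, a whey acidic protein gene, fell from 131, 75.7 and 124 to 31.3, 29.5 and 17.1 CPM (log2 fold change -2.07 ± 0.28, adjusted p = 0.000471). Among leave-one-out fits, those without a call numbered 2 for Trem1, 1 for Mcemp1 of 6, with edgeR adjusted p up to 0.0666 for Mcemp1.

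**Figure D2:**
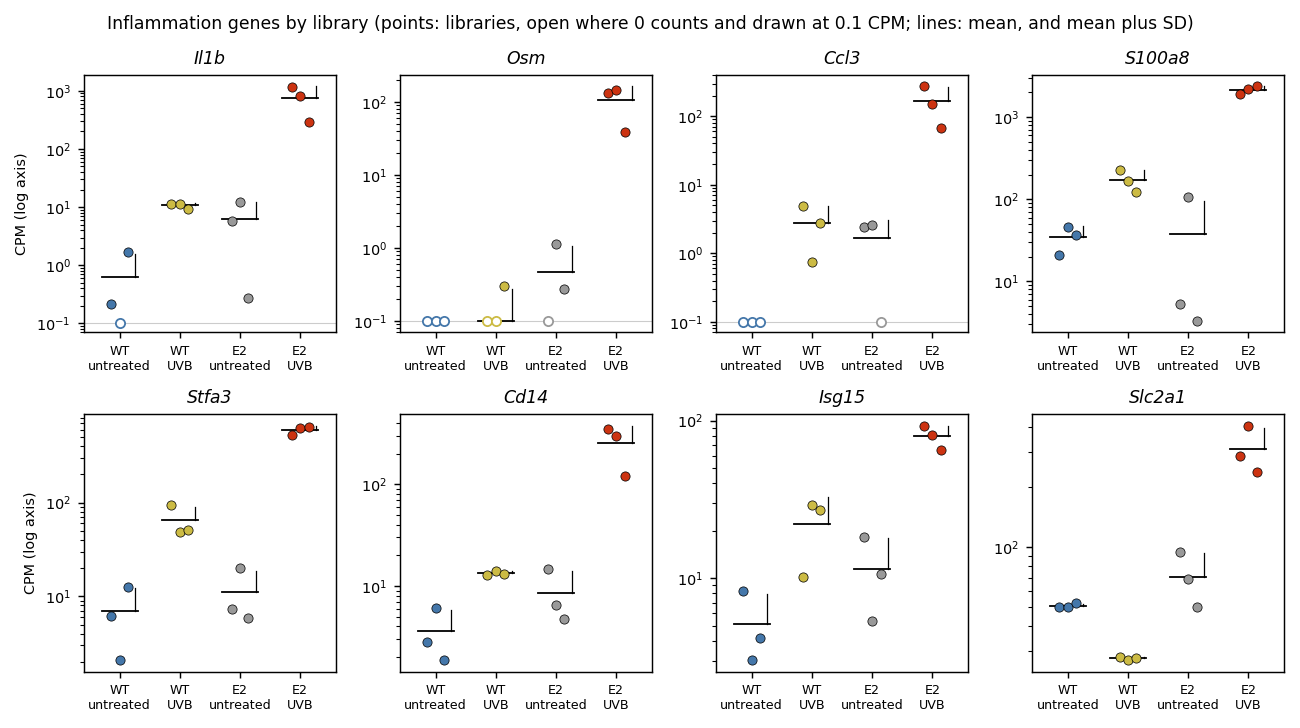
CPM on log axes for 8 genes in each of the 12 libraries, by group, with the mean and the mean plus SD as lines and libraries with 0 counts drawn open at 0.1 CPM. In every panel the 3 irradiated E2 libraries lie above all others, and in Slc2a1 the irradiated WT libraries lie below untreated WT.

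The stefin A genes, a cluster of cysteine protease inhibitors on chromosome 16 that are made by myeloid cells and by epidermis, rose as a whole. All 9 members were tested and all 9 were higher, with a median log2 fold change of 6.41, or 6.28 with members at 0 set at their floor. Stfa3 stood at 6.09, 2.1 and 12.5 CPM in untreated WT, 93.7, 48 and 51.4 in irradiated WT and 522, 626 and 641 in irradiated E2, and the 3 groups did not overlap. Its log2 fold change of 6.41 ± 0.58 (adjusted p = 5.51e-05) split into 3.20 for UVB in WT and 3.21 between the irradiated groups. Csta1, which had the most counts of the family in untreated WT, had the smallest fold change, from 46.8, 35.4 and 50 to 226, 232 and 194 CPM (2.30 ± 0.23, adjusted p = 5.51e-05). These genes are near-identical copies, and counts may be exchanged among them.

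Antimicrobial and acute-phase genes rose in 11 of 17 tested members and fell in 1, with a median of 3.82. Slpi, an inhibitor of neutrophil elastase, was at 2.83, 1.4 and 9.8 CPM in untreated WT, 5.48, 15.5 and 7.6 in irradiated WT and 137, 149 and 94.8 in irradiated E2 (4.74 ± 0.56, adjusted p = 0.000171). Wfdc12, a protease inhibitor of the same fold, gave 6.46 ± 0.79 (adjusted p = 0.000208). The beta-defensin genes Defb1 and Defb14 rose by smaller amounts, 1.92 ± 0.32 (adjusted p = 0.00208) and 2.62 ± 0.45 (adjusted p = 0.00302). Saa2, an acute-phase gene, had 0 counts in untreated WT and 49 in irradiated E2, at least 21.2-fold higher. Of the 6 leave-one-out fits, the call was lost by Saa2 in 6 (edgeR adjusted p up to 0.148).

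Macrophage and monocyte genes rose in 10 of 26 members, all tested, with a median of 1.41. Cd14, the co-receptor for lipopolysaccharide on monocytes, had the smallest p of the list, at 2.83, 6.06 and 1.88 CPM in untreated WT, 12.9, 14 and 13.1 in irradiated WT and 352, 296 and 121 in irradiated E2 (6.16 ± 0.53, adjusted p = 3.59e-05). The 3 groups of Cd14 lay in that order with no overlap. Spp1, which encodes osteopontin, gave 3.42 ± 0.39 (adjusted p = 0.000133), and Arg1, the arginase of tissue-repair macrophages, gave 2.76 ± 0.34 (adjusted p = 0.000247). For Fcgr1, the high-affinity IgG receptor gene, the larger step was UVB in WT skin, from 0.218, 1.17 and 0.834 to 5.21, 6.15 and 10 CPM, and irradiated E2 was at 19.3, 11.6 and 12.8. Pattern-recognition lectins and paired receptors of myeloid cells rose in 7 of 16 tested members, with a median of 3.30. Clec7a, which encodes Dectin-1, the receptor for fungal beta-glucan, was at 3.27, 2.33 and 0.625 CPM in untreated WT and no higher in irradiated WT at 1.64, 0.738 and 2.13, but at 155, 122 and 66 in irradiated E2 (5.77 ± 0.61, adjusted p = 7.79e-05). Cd300lf, an inhibitory receptor gene, had 1 count in untreated WT and 494 in irradiated E2.

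Type 2 and alarmin genes gave 4 higher and 1 lower of 15 tested members (leave-one-out counts 3, 3, 4, 3, 3 and 3), with a median of 1.05. Il33, the nuclear alarmin of keratinocytes and other barrier cells, was at 10.4, 5.83 and 17.9 CPM in untreated WT, 9.04, 10.1 and 6.99 in irradiated WT and 114, 203 and 111 in irradiated E2 (3.64 ± 0.38, adjusted p = 6.73e-05). Both WT groups of Il33 overlapped and lay below every irradiated E2 library. Arg1, described above, was another of the 4 higher members. The 1 lower member was Gata3, which is also counted in the hair matrix and follicle stem cell list below. Its call was lost in all 6 leave-one-out fits. The receptor subunit genes Il4ra (2.30 ± 0.26, adjusted p = 0.000119) and Il13ra1 (1.40 ± 0.31, adjusted p = 0.0162) rose as well. Calls were lost by Il13ra1 in 5 of the 6 leave-one-out fits, with edgeR adjusted p up to 0.0995.

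Genes induced by type I interferon, the antiviral cytokines, rose broadly. Of 33 tested members 18 were higher (leave-one-out counts 12, 12, 16, 11, 13 and 16), all 3 irradiated E2 libraries lay above untreated WT in 26 (14.1% over all tested genes), and the median log2 fold change was 2.26. Bst2, which encodes the virus-tethering protein tetherin, was at 16.5, 9.55 and 8.13 CPM in untreated WT, 28.2, 35.9 and 33.5 in irradiated WT and 101, 92.7 and 99.5 in irradiated E2, with no overlap between the groups. Its log2 fold change was 3.09 ± 0.32 (adjusted p = 6.73e-05), of which 1.51 lay between the WT groups. Isg15, a ubiquitin-like protein gene, was at 8.27, 3.03 and 4.17 CPM in untreated WT and 92.2, 80.8 and 64.9 in irradiated E2 (3.93 ± 0.51, adjusted p = 0.000325). Rsad2, which encodes viperin, gave 4.57 ± 0.58 (adjusted p = 0.000292), and Ifit1, a sensor of foreign RNA caps, gave 4.54 ± 0.60 (adjusted p = 0.000375). The list's medians for the steps were 0.88 for UVB in WT and 1.37 between the irradiated groups.

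The upstream stretches of Isg15, Ifit1, Bst2 and Rsad2 are shown because these 4 genes had the smallest p of the list and all hold the repeat of the interferon-stimulated response element. The motif, GAAA, any 2 bases and GAAA, was searched on both strands in the same 250-base windows, with matches in capitals, and overlapping matches are written as 1 run.
Isg15 (chr4:156200845-156200926, minus strand): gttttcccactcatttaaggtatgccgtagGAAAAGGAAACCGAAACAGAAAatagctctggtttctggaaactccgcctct
Ifit1 (chr19:34640755-34640843, plus strand): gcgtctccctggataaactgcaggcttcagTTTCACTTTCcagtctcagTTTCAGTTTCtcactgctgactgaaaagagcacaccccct
Bst2 (chr8:71537557-71537632, minus strand): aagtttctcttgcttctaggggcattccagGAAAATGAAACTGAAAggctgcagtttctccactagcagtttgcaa
Rsad2 (chr12:26456533-26456602, minus strand): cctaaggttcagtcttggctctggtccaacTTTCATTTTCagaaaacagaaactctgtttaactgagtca
Counting only tested members that the table holds, the motif was before 8 of 12 higher members and 5 of 11 not called higher. It was found before 3.46% of all 27025 genes. The list was made of known interferon targets, so the share among its members is a description of the list.

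Genes of interferon gamma responses and class I presentation rose in 9 of 24 tested members, with a median of 1.19. This count was among the least stable, with leave-one-out counts of 2, 3, 5, 1, 3 and 2. Cd274, which encodes the inhibitory ligand PD-L1, was at 7.18, 1.17 and 1.88 CPM in untreated WT, 4.38, 7.87 and 4.56 in irradiated WT and 72.1, 36.8 and 31.4 in irradiated E2 (3.76 ± 0.73, adjusted p = 0.00719). The class I heavy chain gene H2-D1 rose from 993, 1113 and 1219 to 2309, 2276 and 2379 CPM with irradiated WT at 816, 1205 and 924 (1.07 ± 0.24, adjusted p = 0.0155), and B2m, the class I light chain, gave 1.11 ± 0.25 (adjusted p = 0.0181). MHC class II genes gave 1 of 9 tested members, Ctss, the protease that trims the class II invariant chain (2.12 ± 0.32, adjusted p = 0.000893). Cd74, the invariant chain itself, was at 244, 379.5 and 171 CPM in untreated WT and 339.8, 458 and 567 in irradiated E2, with overlapping groups. Ifng had 4 counts in each group. Leaving out 1 library at a time ended the call of H2-D1 and B2m in 6, Cd274 in 1 of 6 fits (edgeR adjusted p up to 0.121 for B2m).

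T cell genes had few counts. Of 18 tested T cell genes 2 were higher (leave-one-out counts 2, 2, 2, 2, 1 and 1), Trbc2, a T cell receptor beta constant gene, at 18.5, 11.7 and 15.6 CPM in untreated WT and 35.9, 51.3 and 52.1 in irradiated E2 (1.60 ± 0.29, adjusted p = 0.0047), and Bcl11b (1.28 ± 0.26, adjusted p = 0.00803), which epidermis also expresses. Of 14 regulatory T cell genes 8 could be tested and 0 passed with edgeR (4 at an unadjusted p under 0.05), 1 with DESeq2 and 0 with limma voom. Ikzf2, which encodes Helios, was at 76.4, 46.8 and 36.9 CPM in untreated WT and 20.9, 24.9 and 17.1 in irradiated E2 (-1.34 ± 0.41, adjusted p = 0.0825). Ctla4, with too few counts to test, had 4, 0 and 0 in untreated WT and 0, 21 and 0 in irradiated E2. Of the cytotoxic lymphocyte genes 8 were tested and 0 passed with edgeR (3 at an unadjusted p under 0.05), 3 with DESeq2 and 1 with limma voom. Gzma, which encodes granzyme A, had 0 counts in untreated WT and 14.2, 4.84 and 0 CPM in irradiated E2 (adjusted p = 0.086). Of 13 tested Langerhans and dendritic cell genes 0 passed with edgeR (3 at an unadjusted p under 0.05), 1 with DESeq2 and 0 with limma voom, and Cd207, the Langerhans cell lectin gene, was at 11.8, 4.19 and 8.34 CPM and 3.26, 1.21 and 3.28 (-1.66 ± 0.83, adjusted p = 0.352). Among leave-one-out fits, those without a call numbered 2 for Bcl11b of 6, with edgeR adjusted p up to 0.0625.

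Mast cell genes split. Mrgprb2, the receptor through which mast cells respond to cationic peptides and drugs, was at 4.35, 7.46 and 6.25 CPM in untreated WT, 2.47, 0.492 and 0.608 in irradiated WT and 0 counts in all 3 irradiated E2 libraries, at least 21.1-fold lower (adjusted p = 0.0034). Kit, the stem cell factor receptor of mast cells and melanocytes, fell from 37.9, 37 and 39.6 to 12.5, 4.84 and 8.75 CPM with irradiated WT at 37.8, 29 and 75.7 (-2.14 ± 0.44, adjusted p = 0.0105). The protease genes Mcpt4 and Tpsb2 of connective-tissue mast cells were at 9.58, 10.7 and 6.04 and 10.9, 15.1 and 7.3 CPM in untreated WT and at 10.9, 13.6 and 28.1 and 14.7, 25.2 and 40.1 in irradiated E2, and neither passed (adjusted p = 0.403 and 0.331). Hdc, the enzyme that makes histamine in mast cells and neutrophils, was the 1 higher member, at 0, 0 and 3.33 CPM in untreated WT and 234, 167 and 89.3 in irradiated E2 (7.11 ± 0.86, adjusted p = 0.000315). Of the 6 leave-one-out fits, the call was lost by Kit in 1 (edgeR adjusted p up to 0.0626).

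Stress keratins and hyperproliferation genes rose in 16 of 23 tested members (leave-one-out counts 15, 15, 16, 14, 15 and 15), with a median of 3.20. Krt6a, the inducible keratin of wounded epidermis, was at 90.6, 158 and 145 CPM in untreated WT, 785, 601 and 396 in irradiated WT and 4571, 6131 and 4797 in irradiated E2 (5.30 ± 0.51, adjusted p = 5.27e-05). Its partner Krt16 was at 30, 50.1 and 143, 1054, 568 and 468 and 5492, 7506 and 6483 CPM (6.45 ± 0.76, adjusted p = 0.000258), with equal parts in the steps of 3.23 and 3.22. The 3 groups overlapped in neither gene. Krt17, which hair follicles express at rest, changed less, from 1056, 1643 and 1423 to 3489, 3751 and 3772 CPM (1.42 ± 0.23, adjusted p = 0.00156). The small proline-rich genes, precursors of a reinforced cell envelope, included Sprr2d, which went from 4.35, 0 and 14 CPM through 58.1, 84.4 and 28.9 in irradiated WT to 949, 1008 and 719 in irradiated E2 (7.16 ± 0.85, adjusted p = 0.000258). Sprr2b had 0 counts in untreated WT and was at least 421-fold higher. The Sprr2 genes are close copies, and counts may be shared among them.

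Basal and suprabasal epidermal genes gave 7 higher and 2 lower of 25 tested members (leave-one-out counts 7, 6, 8, 5, 5 and 7), with a median of 0.37. Krt14, the keratin of basal cells, was at 2415, 1777 and 2719 CPM in untreated WT and at the same level in irradiated WT, 2712, 2444 and 1742, but at 13290, 17320 and 16240 in irradiated E2 (2.76 ± 0.32, adjusted p = 0.000133). Its partner Krt5 rose less, from 1371, 1059 and 1212 to 1932, 3008 and 2537 CPM (1.04 ± 0.27, adjusted p = 0.0392). Krt1, the suprabasal keratin, rose from 517, 233 and 593 CPM to 2802, 3200 and 3103 (2.76 ± 0.40, adjusted p = 0.000702), while its partner Krt10 was at 1090, 660.5 and 1187 CPM in untreated WT and 799.5, 545 and 769 in irradiated E2 (-0.47 ± 0.31, adjusted p = 0.514), with overlapping groups. The pairs Krt14 with Krt5 and Krt1 with Krt10 thus changed by unequal amounts, and the difference between partners was not tested. Krt77, a suprabasal keratin close to Krt1, fell from 1543, 954 and 1717 CPM through 168, 957 and 419 in irradiated WT to 69.4, 79.4 and 6.2 in irradiated E2 (-4.75 ± 0.78, adjusted p = 0.00272), lowest in replicate 3. Krt15, a keratin of basal cells and of follicle stem cells, fell from 1310, 766 and 815 through 349.6, 557 and 544 to 208, 169 and 99.5 CPM (-2.60 ± 0.34, adjusted p = 0.000387), and the 3 groups did not overlap. The desmosome genes Dsg1b (2.95 ± 0.45), Dsc1 (1.50 ± 0.30) and Pkp1 (1.14 ± 0.24), which join keratinocytes, rose with adjusted p of 0.000971, 0.0086 and 0.0108. Calls were lost by Krt5 in 6, Pkp1 in 3, Dsc1 in 2 of the 6 leave-one-out fits, with edgeR adjusted p up to 0.199 for Krt5.

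Cornified envelope genes moved in both directions, with 12 higher and 6 lower of 31 tested members and a median of 0.33. The Lce3 genes, late envelope genes that injured skin switches on, were all higher. Lce3c was at 8.71, 17.2 and 26.3 CPM in untreated WT, 84.4, 97.4 and 33.5 in irradiated WT and 178, 178 and 207 in irradiated E2 (3.42 ± 0.41, adjusted p = 0.000205), and Lce3b gave 6.30 ± 0.74 (adjusted p = 0.000205). The 6 lower members were 4 genes of the Lce1 family with Lor and Flg2. Lce1m fell from 698, 436 and 662 CPM through 167, 492 and 233 to 34.8, 37 and 10.6 (-4.43 ± 0.49, adjusted p = 0.000133). Lor, which encodes loricrin, the main protein of the envelope, fell from 1286, 753 and 1167 to 469.8, 286 and 411 CPM with irradiated WT at 858, 1444 and 735 (-1.46 ± 0.31, adjusted p = 0.0119). The filaggrin genes, whose products bundle keratin and hold water, parted. Flg rose to 772, 726 and 1098 CPM from 224, 135 and 224 (2.16 ± 0.28, adjusted p = 0.000339), and Flg2 fell from 311, 226 and 328 to 36.5, 36.3 and 27.3 (-3.11 ± 0.35, adjusted p = 0.000133). Within the Lce1 family the direction was not uniform, since Lce1g rose by 1.53 ± 0.40 (adjusted p = 0.0405). Leaving out 1 library at a time ended the call of Lce1g in 5, Lor in 3 of 6 fits (edgeR adjusted p up to 0.154 for Lce1g).

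**Figure D3:**
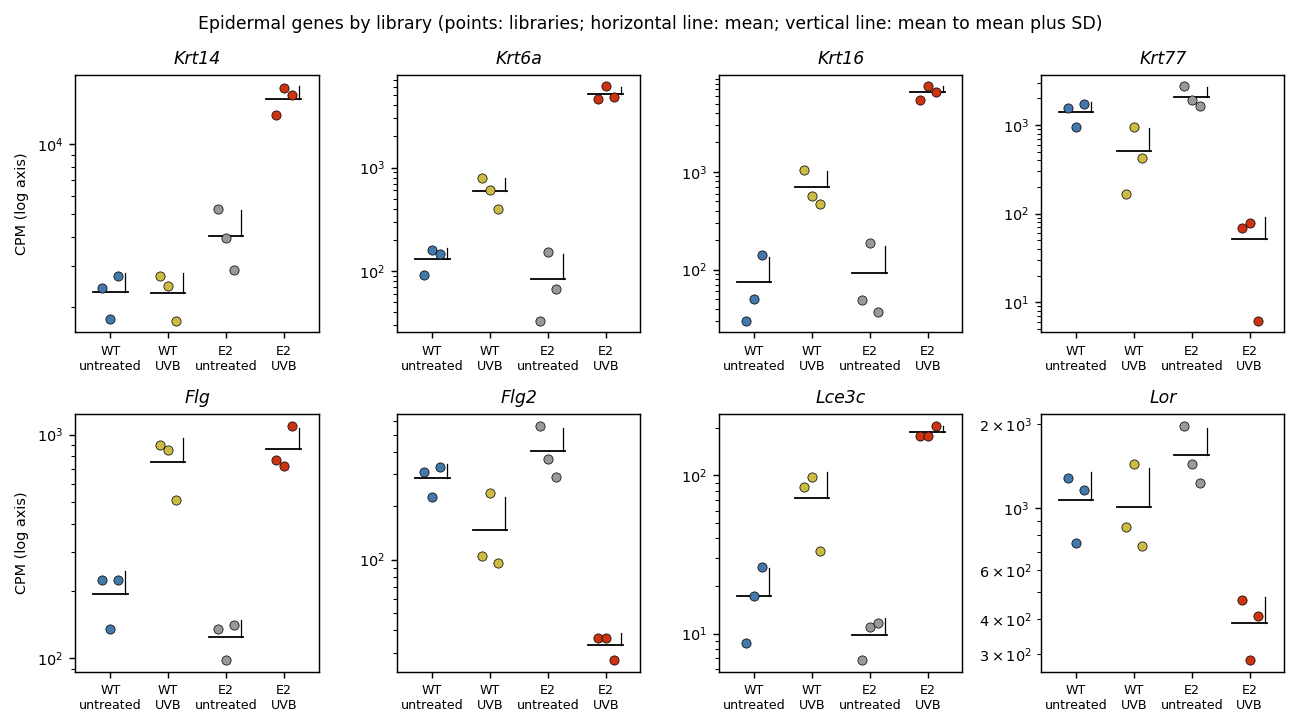
CPM on log axes for 8 epidermal genes in each of the 12 libraries, by group, with the mean and the mean plus SD as lines. Krt14, Krt6a, Krt16 and Lce3c are highest in irradiated E2, Krt77, Flg2 and Lor are lowest there, and Flg overlaps between the irradiated groups.

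Barrier lipid genes rose in 5 of 20 tested members (leave-one-out counts 2, 1, 3, 2, 1 and 3), with a median of 0.54, led by Elovl4, the elongase of very long fatty acids (1.54 ± 0.30, adjusted p = 0.0067), and Ugcg, the first enzyme of glucosylceramide synthesis (1.08 ± 0.25, adjusted p = 0.0195). The Skint genes, made in thymus and epidermis and known for selecting the gamma-delta T cells that live in mouse epidermis, fell in 5 of 11 tested members (leave-one-out counts 4, 4, 5, 3, 5 and 4), with a median of -1.86. Skint10 was at 49.9, 38 and 27.1 CPM in untreated WT, 9.04, 15.7 and 12.8 in irradiated WT and 2.72, 3.63 and 2.92 in irradiated E2 (-3.61 ± 0.44, adjusted p = 0.000209), and the 3 groups lay in that order with no overlap. Skint5 fell from 41.1, 14 and 28.1 CPM through 7.95, 10.8 and 6.69 to 0.544, 1.21 and 0 (-5.35 ± 0.72, adjusted p = 0.000419). Skint1, the member that gave the family its name in T cell selection, was at 20.2, 15.6 and 16.9 CPM in untreated WT, 3.56, 18 and 5.78 in irradiated WT and 39.2, 43.1 and 25.5 in irradiated E2 (1.03 ± 0.44, adjusted p = 0.248), so it did not pass and its libraries lay on the other side. Copies within this family are similar, and counts may be exchanged among them. Among leave-one-out fits, those without a call numbered 5 for Ugcg, 1 for Elovl4 of 6, with edgeR adjusted p up to 0.131 for Ugcg.

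Genes of the hair matrix and follicle stem cells fell in part, while no hair shaft or sheath gene passed the test. Of 29 tested hair shaft and sheath genes 0 passed with edgeR (4 at an unadjusted p under 0.05), 0 with DESeq2 and 0 with limma voom, with a median of -0.60 and irradiated E2 below untreated WT in all libraries for 6 (12.2% over all tested genes). Krt35, an early hair shaft keratin, was at 1325, 1838 and 1762 CPM in untreated WT and 813, 634 and 903 in irradiated E2 (-1.07 ± 0.45, adjusted p = 0.25). Of 24 genes listed as regulators of the hair matrix and follicle stem cells, 6 fell (leave-one-out counts 3, 1, 1, 1, 1 and 2). The median was -0.92, and 14 lay below untreated WT in all libraries. The 6 were Krt15, Lef1, Dlx3, Gli1, Lhx2 and Gata3. Krt15, a keratin gene described above, kept its call in every leave-one-out fit. Lef1, the Wnt effector of the hair matrix, was at 104, 122 and 102 CPM in untreated WT, 95.6, 59.3 and 162 in irradiated WT and 46.2, 39.7 and 35 in irradiated E2 (-1.44 ± 0.32, adjusted p = 0.0161). Gli1, a target of Hedgehog signalling, went from 12.8, 12.6 and 10.8 to 2.72, 3.15 and 3.65 CPM (-1.93 ± 0.47, adjusted p = 0.0274) with irradiated WT at 17, 11.3 and 13.4. Lhx2 (-1.70 ± 0.42, adjusted p = 0.0281) and Dlx3 (-1.10 ± 0.27, adjusted p = 0.0273), transcription factors of follicle stem cells and of the matrix, fell as well. In Lef1, Gli1, Lhx2 and Dlx3 the WT groups overlapped and irradiated E2 lay below them. In the melanocyte list 1 of 14 members was lower, Kit, described above, with leave-one-out counts of 1, 0, 1, 1, 1 and 1. With DESeq2 and with limma voom 4 members each passed. Without the untreated E2 libraries 6 passed, and with only the 6 libraries compared 7. The list's median was -0.91, and 9 members lay below untreated WT in all libraries. Dct, a melanin enzyme, was at 438, 459.9 and 386 CPM in untreated WT and 221, 207 and 254 in irradiated E2 (-0.91 ± 0.25, adjusted p = 0.0523). Hair shaft, hair regulator and melanocyte levels move together in skin with the amount of growing follicle in a sample, and the part of that amount in these results was not tested. With the summed hair shaft genes as a covariate, 4 regulators in place of 6 passed, Lef1 (adjusted p = 0.0529) and Lhx2 (adjusted p = 0.0568) did not, and 596 genes in all were higher and 128 lower. Of the 6 leave-one-out fits, the call was lost by Gli1 and Dlx3 in 6, Lhx2 in 5, Lef1 in 4 (edgeR adjusted p up to 0.142 for Dlx3).

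Collagen genes rose in 8 of 26 tested members and fell in 1 (leave-one-out counts 10, 4, 7, 5, 7 and 5), with a median of 0.66. Col12a1, a collagen of remodelled matrix, was at 31.1, 22.4 and 19.6 CPM in untreated WT, 17.8, 20.7 and 21 in irradiated WT and 64.2, 171 and 85.3 in irradiated E2 (2.13 ± 0.33, adjusted p = 0.00118). Replicate 2 was the highest irradiated E2 library for Col12a1, Col5a1 (1.85 ± 0.30, adjusted p = 0.00187), Col6a3 (1.59 ± 0.34, adjusted p = 0.0133) and Col3a1 (1.42 ± 0.32, adjusted p = 0.0163). Col7a1, which anchors epidermis to dermis, gave 1.71 ± 0.32 (adjusted p = 0.00532) and was highest in replicate 3. Col1a1, the main dermal collagen, was at 169, 118 and 122 CPM in untreated WT and 208, 499 and 325 in irradiated E2 (1.33 ± 0.40, adjusted p = 0.0778) and did not pass. Col4a6, a basement membrane chain of epithelium, had 130 counts in untreated WT and 2 in irradiated E2, a ratio of 0.02 (exact 95% interval 0.00239 to 0.0735, counting error only). Calls were lost by Col6a3 in 5, Col3a1 in 3 of the 6 leave-one-out fits, with edgeR adjusted p up to 0.105 for Col3a1.

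Genes of matrix turnover rose in 7 of 17 tested members (leave-one-out counts 5, 5, 6, 4, 3 and 4), with a median of 1.17. Plaur, the receptor for urokinase, was at 0.435, 0.699 and 5.84 CPM in untreated WT, 0, 12.3 and 3.35 in irradiated WT and 273, 194 and 137 in irradiated E2 (6.39 ± 0.91, adjusted p = 0.000898). Mmp13, a collagenase, was at 1.74, 0.466 and 1.88 CPM in untreated WT and 41.6, 54.5 and 50.7 in irradiated E2 (5.12 ± 1.03, adjusted p = 0.00996), with irradiated WT no higher than untreated WT at 0.274, 1.48 and 0. The inhibitor gene Timp1 rose too (3.48 ± 0.52, adjusted p = 0.000921). Against 3.72% higher over all tested genes, matrix glycoprotein and fibroblast genes gave 5 higher of 28 (leave-one-out counts 5, 1, 5, 2, 2 and 1). Among them was Tnc, the tenascin of healing wounds (1.81 ± 0.43, adjusted p = 0.0252). Endothelial and adhesion genes gave 3 higher of 20 (leave-one-out counts 2, 1, 2, 1, 3 and 1). Among these was Vegfa, the angiogenic factor that keratinocytes secrete (1.42 ± 0.28, adjusted p = 0.00818). Leaving out 1 library at a time ended the call of Tnc in 3, Mmp13 in 2 of 6 fits (edgeR adjusted p up to 0.192 for Tnc).

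Ligands of the EGF receptor drive keratinocyte growth and migration. Of 13 tested genes of the receptor and its ligands, 1 was higher and 1 lower (leave-one-out counts 1, 1, 1, 1, 2 and 1). Over all tested genes 3.72% were higher and 0.833% lower, and these single calls are not a result about the list. Hbegf was at 15.7, 24.2 and 22.7 CPM in untreated WT, 27.4, 21.4 and 11.2 in irradiated WT and 95.5, 96.8 and 95.5 in irradiated E2 (2.20 ± 0.37, adjusted p = 0.00253). Btc, which encodes betacellulin, fell from 43.1, 29.6 and 44 to 12.8, 12.1 and 7.29 CPM (-1.84 ± 0.45, adjusted p = 0.0272), and irradiated WT was as low at 2.47, 15.2 and 7.91. Immediate early genes rose in 4 of 22 members (leave-one-out counts 1, 2, 3, 1, 3 and 2), Ier3 (1.70 ± 0.26), Zfp36 (1.44 ± 0.28), Junb (1.26 ± 0.27) and Fos (2.07 ± 0.52), with adjusted p from 0.000908 to 0.0371. Of the prostaglandin and lipoxygenase genes 3 of 20 rose and 1 fell. Ptgs2, the inducible cyclooxygenase, was at 2.18, 0.233 and 1.25 CPM in untreated WT, 0, 5.9 and 0.304 in irradiated WT and 75.1, 49.6 and 17.9 in irradiated E2 (5.24 ± 1.02, adjusted p = 0.00774), and Ptges, the next enzyme towards prostaglandin E2, gave 1.59 ± 0.33 (adjusted p = 0.0107). Ptger4, a receptor for that prostaglandin, fell from 31.4, 46.1 and 36.1 to 13.1, 15 and 14.6 CPM (-1.41 ± 0.28, adjusted p = 0.008). Among leave-one-out fits, those without a call numbered 6 for Fos, 5 for Btc, 4 for Junb, 3 for Ptges, 2 for Zfp36, 1 for Ptgs2 of 6, with edgeR adjusted p up to 0.143 for Fos.

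Glycolysis and hypoxia genes rose in 6 of 22 tested members (3.72% over all tested genes), with a median of 0.82. In 17 of them irradiated E2 lay above untreated WT in all libraries (14.1% over all tested genes). Slc2a1, the basal glucose transporter of keratinocytes and other cells, was at 49.6, 49.6 and 52.1 CPM in untreated WT, 27.9, 27.1 and 27.7 in irradiated WT and 285, 407 and 238 in irradiated E2 (2.62 ± 0.25, adjusted p = 5.27e-05). The steps had opposite signs for Slc2a1, -0.87 (adjusted p = 0.701) for UVB in WT and 3.49 (adjusted p = 1.44e-05) between the irradiated groups. Hif1a, the hypoxia-responsive transcription factor gene, was at 67.7, 59.6 and 70.5 CPM in untreated WT, 63.6, 69.6 and 64.8 in irradiated WT and 166, 211 and 125 in irradiated E2 (1.34 ± 0.20, adjusted p = 0.000992), and the glycolytic genes Eno1 (1.41 ± 0.20, adjusted p = 0.000575) and Pfkl (1.64 ± 0.24, adjusted p = 0.000893) rose with it. Of 19 tested NRF2 antioxidant genes 1 rose and 1 fell, with leave-one-out counts of 3, 1, 1, 2, 2 and 1. Against 3.72% higher and 0.833% lower over all tested genes, these single calls are not a result about the list. Gsta4, which detoxifies lipid peroxidation products, rose (4.40 ± 0.52, adjusted p = 0.000208). Txnrd1, thioredoxin reductase, fell (-0.90 ± 0.20, adjusted p = 0.0155). Of the 6 leave-one-out fits, the call was lost by Txnrd1 in 3 (edgeR adjusted p up to 0.0859).

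Genes of DNA damage response and cell division, which acute UVB is known to engage, were described as 2 lists. Of 28 tested p53 targets and repair genes 2 were higher, Gadd45b (1.68 ± 0.25, adjusted p = 0.000971) and Pmaip1 (2.08 ± 0.46, adjusted p = 0.015). The median was 0.08, and leave-one-out counts were 1, 1, 2, 1, 1 and 1. Against 3.72% higher over all tested genes, these 2 calls are not a result about the list. Cdkn1a, the p53 target that halts the cell cycle, was at 455, 653 and 522 CPM in untreated WT and 613, 523 and 612 in irradiated E2 (0.10 ± 0.19). Of 30 tested cell division genes 0 passed with edgeR (0 at an unadjusted p under 0.05), 0 with DESeq2 and 0 with limma voom, with a median of -0.11, and Pcna was at 94.7, 104 and 94.4 and 72.9, 91.5 and 81.3 CPM (-0.25 ± 0.21, adjusted p = 0.647). Hair matrix cells and epidermal cells both express division genes and cannot be told apart here. Of 19 oxidative phosphorylation genes 0 passed with edgeR (2 at an unadjusted p under 0.05), 0 with DESeq2 and 0 with limma voom, with a median of 0.20. Of 25 skeletal muscle genes 0 passed with edgeR (3 at an unadjusted p under 0.05), 1 with DESeq2 and 0 with limma voom, with a median of -0.10. Of 19 adipocyte genes 0 passed with edgeR (3 at an unadjusted p under 0.05), 1 with DESeq2 and 1 with limma voom, with a median of -0.56. Of 18 clock genes Bhlhe40 rose (1.18 ± 0.24, adjusted p = 0.00841) and Npas2 fell, with 35 counts in untreated WT and 0 in irradiated E2, at least 9-fold lower (adjusted p = 0.043), and leave-one-out counts for the list were 1, 0, 2, 1, 0 and 1. Against 3.72% higher over all tested genes, inflammasome and cell death genes rose in 4 of 19 tested members (median 1.02), complement genes in 4 of 17 (median 0.94, leave-one-out counts 2, 2, 3, 1, 6 and 1), sebaceous gland genes in 1 of 17 (median 0.09, leave-one-out counts 1, 1, 1, 0, 1 and 0) and Schwann and nerve genes in 1 of 11 (median 0.41, leave-one-out counts 0, 1, 0, 0, 0 and 0). Set against that share, 1 call among 17 or 11 genes is not a result about the list. Some other list members had 0 counts in untreated WT and too few counts to test. Over the irradiated E2 libraries Ccr7 held 33 counts, Sirpb1c 32, Ighg2b 25, Sprr2a1 21, and Ccr8, Defb3 and Zap70 20 each. In irradiated WT the totals were 6, 0, 32, 3, 18, 3 and 8 in the same order. Irradiated E2 replicate 2 held all 25 counts of Ighg2b and 28 of those of Ccr7. Of 6 tested B and plasma cell genes 0 passed with edgeR (1 at an unadjusted p under 0.05), 1 with DESeq2 and 0 with limma voom. The haemoglobin genes Hba-a1 (1.52 ± 0.34, adjusted p = 0.0172) and Hbb-bs (1.58 ± 0.41, adjusted p = 0.0417) rose among 5 erythroid genes tested, which are markers of blood in a sample (leave-one-out counts 0, 2, 0, 0, 0 and 1). Calls were lost by Npas2 in 6, Pmaip1 and Hbb-bs in 5, Hba-a1 in 4, Bhlhe40 in 2 of the 6 leave-one-out fits, with edgeR adjusted p up to 0.188 for Hbb-bs.

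**Figure D4:**
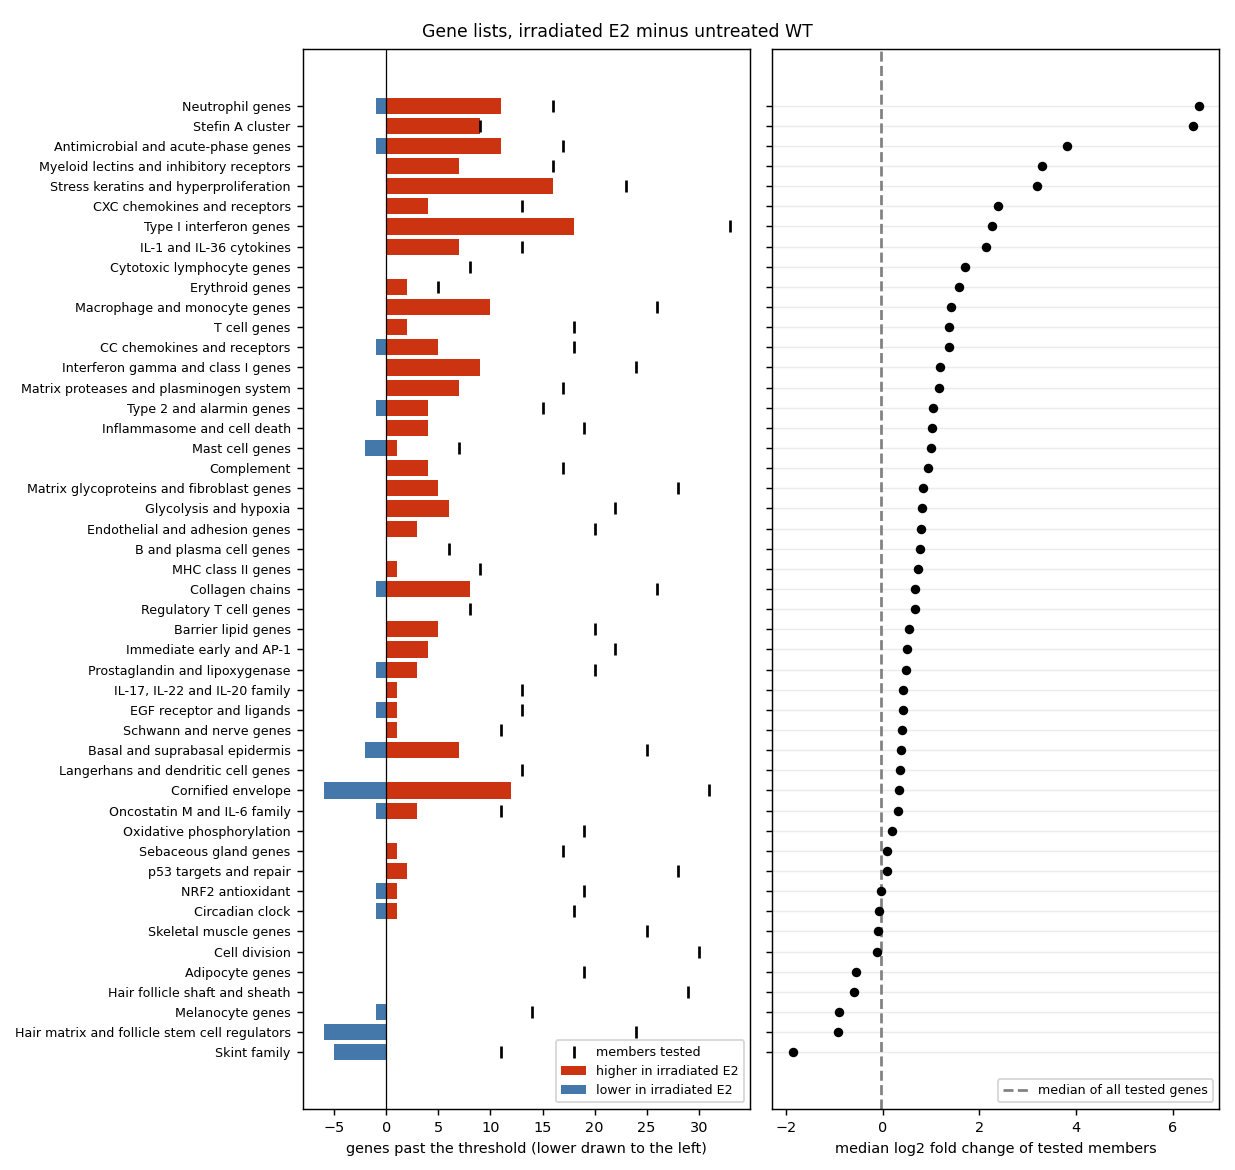
Members of 48 gene lists past the threshold (left, higher in red and lower in blue drawn to the left, ticks for members tested) and the median log2 fold change of tested members (right, dashed line for all tested genes), irradiated E2 minus untreated WT. Neutrophil and stefin A genes have the highest medians, 6.54 and 6.41, and Skint genes the lowest, -1.86.

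Set in the order untreated WT, irradiated WT, irradiated E2, the genes followed different courses. In a first course most of the rise lay in WT skin under UVB. Flg rose by 1.96 between the WT groups (adjusted p = 0.0261), from 224, 135 and 224 to 900.2, 858 and 511 CPM, and differed by 0.19 between the irradiated groups (adjusted p = 0.819). Cyp2g1, a cytochrome P450 gene, had 0 counts in untreated WT, 10.4, 1.23 and 7.91 CPM in irradiated WT and 8.43, 5.81 and 3.65 in irradiated E2, at least 28.1-fold higher in the latter than in untreated WT. In a second course the steps were of similar size, as for Krt16 and Stfa3 above, and for Rbp2 and Klk6, which passed at both. Rbp2, a retinol-binding protein gene chosen here after its values were seen, was at 6.97, 4.66 and 6.04 CPM in untreated WT, 31.8, 19.7 and 23.7 in irradiated WT and 158, 205 and 180.1 in irradiated E2, with steps of 2.08 (adjusted p = 0.0261) and 2.85 (adjusted p = 0.000209). Klk6, a kallikrein protease gene chosen the same way, had steps of 2.61 (adjusted p = 0.0261) and 1.80 (adjusted p = 0.0126). In the remaining course WT skin under UVB stayed near or below the untreated level and irradiated E2 lay above both, as for Krt14, Osm, Clec7a, Il33, Mmp13, Hif1a and Slc2a1. By list, the medians of the steps were 2.61 and 3.42 for stefin A genes, 1.35 and 1.94 for stress keratins, 0.72 and 0.90 for macrophage genes, -0.19 and 0.95 for collagens, 0.18 and 0.74 for glycolysis and hypoxia genes, and -0.01 and -1.01 for hair regulators. Leaving out 1 library at a time ended the call of Cyp2g1 in 2 of 6 fits (edgeR adjusted p up to 0.0547).

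**Figure D5:**
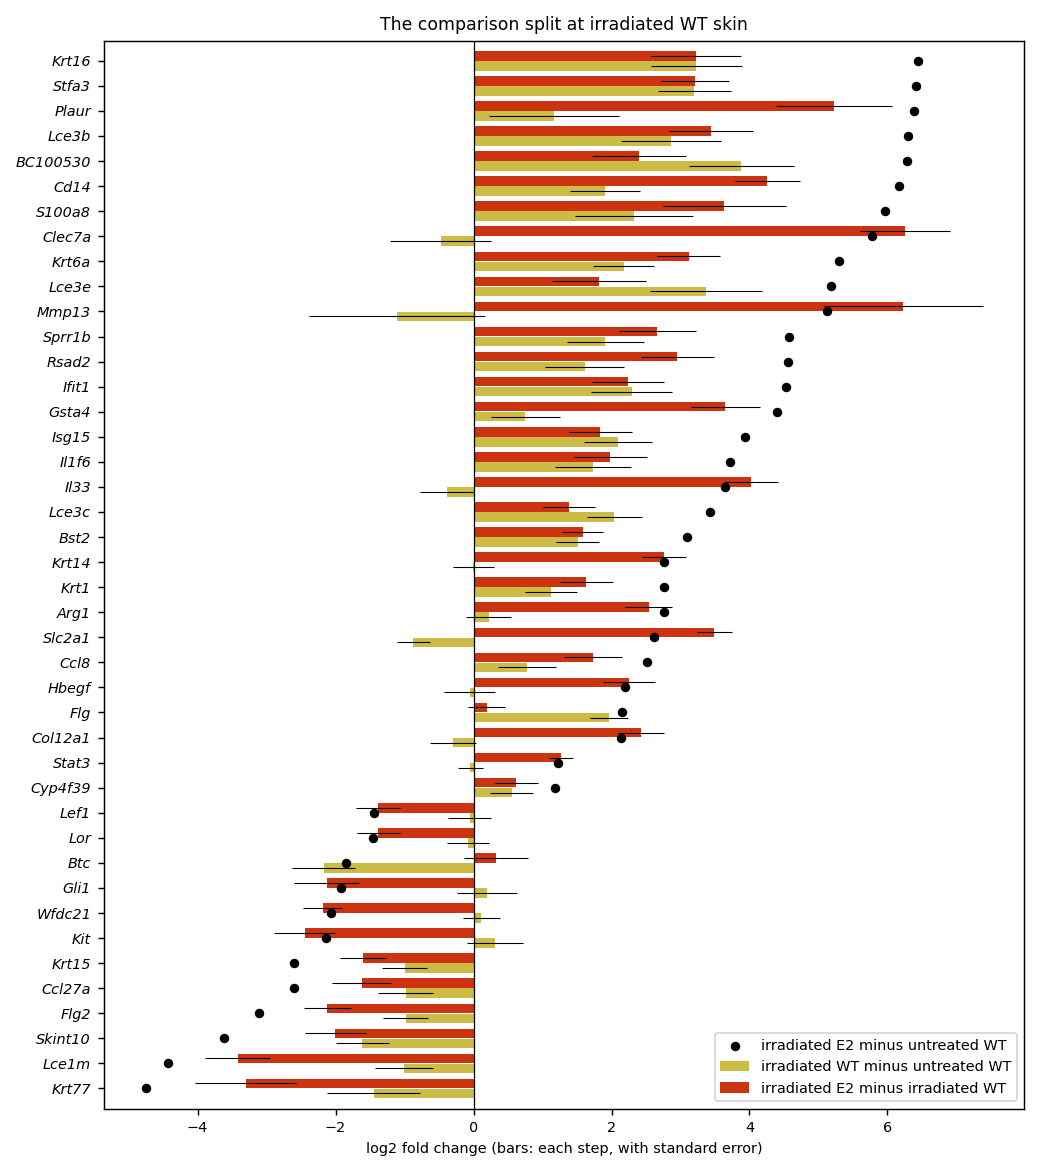
Log2 fold change with its standard error for UVB in WT skin (yellow bars) and for irradiated E2 minus irradiated WT (red bars), with the whole comparison as black points, for 42 named genes ordered by the whole comparison. Krt16 and Stfa3 have bars of equal length, Flg and Btc have almost all of their difference in the yellow bar, and Krt14, Clec7a, Slc2a1 and Mmp13 have theirs in the red bar.

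Among the largest rises outside the genes above, Clec4e, the lectin Mincle of macrophages, had 0 counts in untreated WT and 107, 54 and 29.9 CPM in irradiated E2, at least 303-fold higher (adjusted p = 0.000636). Chil4, a chitinase-like gene, had 0 counts and 25.8, 60 and 4.37 CPM, at least 153-fold higher (adjusted p = 0.0143 with edgeR, 0.0921 with DESeq2 and 0.0541 with limma voom), with replicate 2 the highest. Cdhr1, a cadherin-related gene, and Tmprss11b, a membrane serine protease gene, also had 0 counts in untreated WT and were at least 124-fold and 88.2-fold higher, with even levels across the irradiated E2 libraries for Cdhr1 at 26.1, 28.8 and 26.6 CPM. Among leave-one-out fits, those without a call numbered 3 for Chil4 of 6, with edgeR adjusted p up to 0.0623.

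The genes with the largest falls lay mostly outside the inflammatory lists. Apart from Skint, Lce1m, Krt77 and Flg2 above, they were Mrgprb11-ps, Dab1, Cfap57, Sema3d, 2010300C02Rik, Rspo2, Pkib, Serpinb7 and Rab11fip4. Cfap57, a cilia protein gene, was at 29.2, 19.8 and 26.1 CPM in untreated WT, 12.1, 11.8 and 10.3 in irradiated WT and 2.18, 1.45 and 0.729 in irradiated E2 (-4.04 ± 0.40, adjusted p = 5.52e-05). Serpinb7, a serine protease inhibitor gene of epidermis, was at 89.2, 45 and 79.2 CPM in untreated WT and 8.16, 7.02 and 5.83 in irradiated E2 (-3.33 ± 0.38, adjusted p = 0.000133). Sema3d, a guidance semaphorin gene, fell from 35.3, 25.6 and 29 CPM through 4.66, 12.3 and 8.21 to 1.36, 2.66 and 3.28 (-3.63 ± 0.53, adjusted p = 0.000725), with 3 groups that did not overlap. Rspo2, a Wnt agonist of hair follicles, was at 9.36, 4.43 and 6.46 CPM in untreated WT and 0.272, 0.484 and 1.09 in irradiated E2 (-3.44 ± 0.86, adjusted p = 0.0371). Dab1, a signalling adaptor gene, had 150 counts in untreated WT and 2 in irradiated E2, a ratio of 0.0173 (exact 95% interval 0.00207 to 0.0636, counting error only). Of the 6 leave-one-out fits, the call was lost by Rspo2 in 6, 2010300C02Rik and Pkib in 5 (edgeR adjusted p up to 0.163 for 2010300C02Rik).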

How the data were processed

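Skin RNA of 12 mouse libraries was sequenced in bulk. Per the submitters' processing notes, the authors used Trimmomatic 0.39, Picard 3.1.0, SAMtools 1.16 and HTSeq 2.0.2 with the mouse build GRCm38. The deposited values are raw HTSeq counts per gene, with HTSeq's summary lines left out here. The aligner, annotation release and strand setting are, in the sources used here, not given, so reads of overlapping or antisense genes cannot be separated, and those of near-identical genes may be shared.

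Gene symbols came from GENCODE M21, which matched 53360 of 53465 identifiers. Genes passing edgeR's filterByExpr (15126) were scaled by TMM and tested with edgeR 4.0.16 (robust quasi-likelihood, 1 mean per group over all 12 libraries, 8 residual degrees of freedom) in R 4.3.3, with Benjamini-Hochberg adjustment over all tested genes and a threshold of 0.05. The common biological coefficient of variation was 35.8%. CPM are TMM-scaled, and ± gives the standard error, the absolute log2 fold change divided by the square root of F, with n = 3 libraries per group. Groups with 0 counts were set at a floor of 3 counts over the group, with exact 95% intervals for 1 to 3 counts, which cover counting error only.

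The 49 gene lists (948 entries, 832 tested, with Il36rn, Krt85 and Pi3 unmatched) and the genes described were chosen with earlier results of these data known. Genes to name were drawn from the 15 largest changes per direction among called genes with non-overlapping groups and a mean of 1 or more on the log2 CPM scale, the 6 list members with the smallest p, members with a median of at least 200 CPM in a group or with 0 counts in one group and at least 20 in the other, and Foxp3. Ccl9, Ccl20, Ctla4, Elane, Fpr1, Ifng, Il17a, Il17f, Il22, Klk6, Lce1g, Ly6g, Mmp8, Mpo, Rbp2 and Skint1 were named after their values were seen. Some of the genes drawn are not reported here. Lists are described by counts and medians, with no set test. The test was run on simulated counts of known fold change. Alternatives were other scalings, filters and library sets, DESeq2 1.42.0, limma 3.58.1 (voom), a test against a 2-fold change, and hair and muscle covariates. Each irradiated E2, untreated WT and irradiated WT library was also left out in turn, and no untreated E2 library was left out singly. Leaving out irradiated WT libraries, and the alternatives for the steps, were added after seeing the data. Upstream sequences came from a RefSeq table for GRCm38.p6.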

Additional observations from a re-analysis of the deposited data

Results flagged for a closer look

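For the 30 genes with the largest changes, the UVB difference in E2 skin (irradiated minus untreated E2) was set against that in WT skin by an interaction term (edgeR's quasi-likelihood test, adjusted over all tested genes). All 30 were picked by irradiated E2 minus untreated WT, and the same libraries enter this term. Both of those groups enter it with the same sign, and how the pick bears on the term was not tested. The next count has no share over all tested genes beside it. In 12 of the 15 lower genes the fall under UVB was larger in E2 than in WT skin (adjusted p under 0.05). The other 3 did not pass, with differences of -3.22 for Pkib (adjusted p = 0.0833), -2.58 for 2010300C02Rik (adjusted p = 0.194) and, in the opposite direction, 4.61 for Rspo2 (adjusted p = 0.0767), which was 4.27 higher under UVB in E2 skin. Among the 12, the difference between the falls, E2 minus WT on the log2 scale, was -5.66 for Dab1 (SE 0.94, adjusted p = 0.0016), -5.55 for Mrgprb11-ps (SE 1.15, adjusted p = 0.00759), -4.18 for Lce1m (SE 0.62, adjusted p = 0.000918) and -3.66 for Cfap57 (SE 0.51, adjusted p = 0.00047). The suprabasal keratin gene Krt77 gave -3.88 (adjusted p = 0.0236), and the filaggrin gene Flg2 gave -2.62 (adjusted p = 0.00291). The Skint genes gave -4.43 for Skint5, -3.13 for Skint7 and -2.54 for Skint10, with adjusted p of 0.00704, 0.0422 and 0.0127. Serpinb7, Rab11fip4 and Sema3d gave -2.81, -2.61 and -2.58, with adjusted p of 0.00273, 0.013 and 0.0274.

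These values rest on the untreated E2 libraries, in which hair shaft and sheath genes were lower than in untreated WT (list median -5.93) and skeletal muscle genes higher (list median 1.96). The part of that tissue mix in the 12 differences was not tested. The share of all tested genes that pass the interaction term is not given, so the 12 have no background to be set against. Of all tested genes, 23% differed between the untreated groups and 27.8% between the E2 groups. The 15 higher genes had adjusted p from 0.118 to 1 for the interaction term. Several of them had 0 or few counts in a group, where the standard error taken from F is not a usable measure of spread. It ran from 0.02 for Trem1 to 17632.57 for Clec4e.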

How the results depend on the processing

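No gene of the 688 changed sign under any alternative run. The fits that leave out 1 library cover the irradiated E2, untreated WT and irradiated WT groups, not untreated E2. The 688 genes became 1156 with no filter on low counts, 1221 with only the 6 libraries compared, 1077 with DESeq2 and 199 when tested against a 2-fold change, and 341 to 764 when 1 library was left out. UVB in WT skin, 3 genes, gave 1 with total counts, 141 with no filter, 12 without untreated E2, 22 with DESeq2, 0 against a 2-fold change, 0 with the hair covariate, 6 with the muscle covariate and 0 to 8 leaving out 1 library. The 448 genes between the irradiated groups became 1031 with no filter, 686 without untreated E2, 876 with DESeq2, 49 against a 2-fold change, 213 with the hair covariate and 130 to 432 leaving out 1 library. Distinct list members past the threshold, 212, became 110 against a 2-fold change and 134 to 232 leaving out 1 library. Why these counts moved was not tested, apart from a fold test asking for more. Of 130 named genes past the threshold, none changed sign, and 70 kept the call in every alternative that gave them an adjusted p. Scaling by total counts ended 15 calls (2010300C02Rik, B2m, Bcl11b, Col3a1, Cxcl10, H2-D1, Hbb-bs, Il13ra1, Il17rc, Junb, Krt5, Lce1g, Pkp1, Tnc and Ugcg), the hair covariate 7 (2010300C02Rik, Fos, Lef1, Lhx2, Npas2, Pkib and Rspo2) and the 2-fold test 52. Cdkn1a, not called at 0.10, was -0.06 with total counts and -0.03 to 0.23 leaving out 1 library, and the cause was not tested. No paired analysis was possible because the labels give no replicate numbers, and those used here follow accession order. Genes near the filter are limited by depth, as the shallowest library held 2809142 counts.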
